A study of Mus musculus with 43 samples.

Results

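The estrogen-related receptors Esrra, Esrrb and Esrrg and their coactivators Ppargc1a and Ppargc1b were examined in the retinas of mice with laser-induced choroidal neovascularization (CNV). The members were picked by gene symbol, which gave 5 of the 54532 gene rows of the count table, and all 5 had enough counts in enough libraries to be tested. The set was assembled around Esrrg, whose difference between SCFA-treated and control mice at 7 and 14 days post-laser (dpl) was already known in these libraries. Values of Esrrg at those days are therefore given as a description, without a test. RNA was sequenced from 43 libraries of C57BL/6J mice that were lasered at 9 weeks of age, and each library pooled 2 retinas from different animals of the same group. SCFA mice drank 67.5 mM sodium acetate, 40 mM sodium propionate and 25 mM sodium butyrate, the salts of short-chain fatty acids made by gut bacteria, from before the laser until the retina was collected. Control mice were lasered as well but drank no SCFA, so every library comes from a lasered eye and none shows the level before injury. Females provided 3 control and 5 SCFA libraries at 3 dpl, 3 and 4 at 7 dpl, and 3 and 4 at 14 dpl. Males provided 4 control and 3 SCFA libraries at 3 dpl, 3 and 5 at 7 dpl, and 3 of each at 14 dpl.

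The estrogen-related receptors are nuclear receptors that resemble the estrogen receptors in sequence but do not need estrogen to act. They bind DNA at a short element and switch on genes of mitochondrial respiration, the tricarboxylic acid cycle and fatty acid oxidation, mostly when a coactivator of the PGC-1 family, encoded by Ppargc1a and Ppargc1b, is bound to them. Esrra is found in most tissues with a high energy demand, Esrrb is abundant in rod photoreceptors, and Esrrg is found in neurons and other cells that rely on oxidative metabolism.

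Totals ran from 14826957 to 21507527 counts per library, with a median of 17683615. Retinal identity was plain, since 6 rod markers together made up 46240 to 96360 CPM (counts scaled for library size) in every library. The table's first 31 and last 12 columns form separate runs of columns, and mitochondrial mRNAs held 4.71 to 14.8% of counts in the first and 2.50 to 4.57% in the second, so the run was a term in the main fit. Several libraries stood apart. The library labelled female control 7 dpl replicate 2 carried the Y-linked Ddx3y at 15.2 CPM and Xist at 92.6 CPM. Female SCFA 3 dpl replicate 2 held 6 lens markers at a summed 222800 CPM, and replicate 1 of the same group held 6 muscle markers at 117 CPM. Results that rest on these libraries are given with and without them.

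The genes lie on 5 chromosomes of GRCm38, with ends taken from GENCODE M21. Esrra (ENSMUSG00000024955) spans chr19:6910977-6921813 on the minus strand and Esrrb (ENSMUSG00000021255) chr12:86361117-86521628 on the plus strand. Esrrg (ENSMUSG00000026610) spans chr1:187608791-188214885 on the plus strand. Ppargc1a (ENSMUSG00000029167) lies at chr5:51454250-51567726 on the minus strand, and Ppargc1b (ENSMUSG00000033871) is on the minus strand as well. Their transcripts differ in base composition. The GC content of the longest transcript was 41.7% for Ppargc1a, 42.5% for Esrrg, 50.3% for Esrra, 54.9% for Esrrb and 57.8% for Ppargc1b. Exons of Esrra overlap those of Trmt112 on the opposite strand, and since the strand setting of the counting is not given in the sources used here, reads of the pair cannot be told apart in the shared stretch.

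Promoters are shown for Esrrg and Ppargc1a, because these members had the largest differences between SCFA and control males at 7 dpl. RefSeq windows on GRCm38.p6, from 250 bases before to 50 bases after a transcript start, were held for 4 starts of Esrrg, 2 of Esrrb, 1 of Esrra and 1 of Ppargc1a. The first Esrrg window is chr1:187608756-187609055 on the plus strand, with a site of the muscle and neuron factor MEF2 in capitals. The Ppargc1a window is chr5:51567676-51567975 on the minus strand. In it the core of the cAMP response element (TGACG, here on the opposite strand) is in capitals.
Esrrg: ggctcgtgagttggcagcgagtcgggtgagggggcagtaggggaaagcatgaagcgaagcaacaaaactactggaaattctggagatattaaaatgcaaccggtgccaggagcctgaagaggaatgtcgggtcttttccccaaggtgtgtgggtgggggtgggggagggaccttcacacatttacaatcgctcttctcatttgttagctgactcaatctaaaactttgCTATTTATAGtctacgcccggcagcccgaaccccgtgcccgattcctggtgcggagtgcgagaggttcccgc
Ppargc1a: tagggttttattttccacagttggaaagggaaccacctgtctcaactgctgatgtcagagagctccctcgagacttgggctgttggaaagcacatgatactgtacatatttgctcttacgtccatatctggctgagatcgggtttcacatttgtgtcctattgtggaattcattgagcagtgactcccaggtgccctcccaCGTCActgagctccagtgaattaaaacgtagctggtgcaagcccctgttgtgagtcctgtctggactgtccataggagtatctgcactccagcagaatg
On both strands, this MEF2 site was found in 0.164% of all 32851 promoter windows and in 1 of the 8 windows of the members, where its first base lies at -22 from the transcript start. The letters TGACG were far more common, in 20.8% of all windows, and lay at -49 in Ppargc1a and at 2 places in 1 window of Esrrb. The 8-letter palindrome TGACGTCA, which contains TGACG, was in 1.79% of all windows and 0 of 8. The element that the receptors bind, TNAAGGTCA, was in 1.28% of all windows and in 0 of 8, and its core AAGGTCA in 4.72% and 0 of 8. GC boxes (GGGCGG) were in 35.7% of all windows and in 3 of 8, namely 2 of Esrrg and the window of Esrra. These are matches of letters in short windows and say nothing about binding.

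Scaled to the longest transcript as RPKM (CPM per kilobase), Esrrb was the most abundant member by far, with a lowest, median and highest value over the 43 libraries of 54.7, 104 and 153. Esrra followed with 6.39, 16.6 and 24.2. Ppargc1b had 5.04, 11.3 and 15.3, Esrrg 5.33, 11.2 and 19.7, and Ppargc1a 4.40, 6.74 and 10.6. With all exons of each gene joined, the medians were 74.1 for Esrrb, 10.4 for Ppargc1b, 9.72 for Esrrg, 9.41 for Esrra and 6.61 for Ppargc1a, so the order of the members between the highest and the lowest depends on the length used. Within a gene, the highest library exceeded the lowest by 3.78 times in Esrra, 3.69 in Esrrg, 3.04 in Ppargc1b, 2.80 in Esrrb and 2.41 in Ppargc1a. When the 12 groups were put in order of their mean CPM, most neighbours differed by less than their spread. Of the 11 neighbouring pairs, a gap larger than both SDs was found in 0 for Esrra, Esrrb and Ppargc1b, in 1 for Esrrg and in 2 for Ppargc1a. In a bulk retina, fewer cells of a type and less RNA per cell cannot be told apart.

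**Figure D1:**
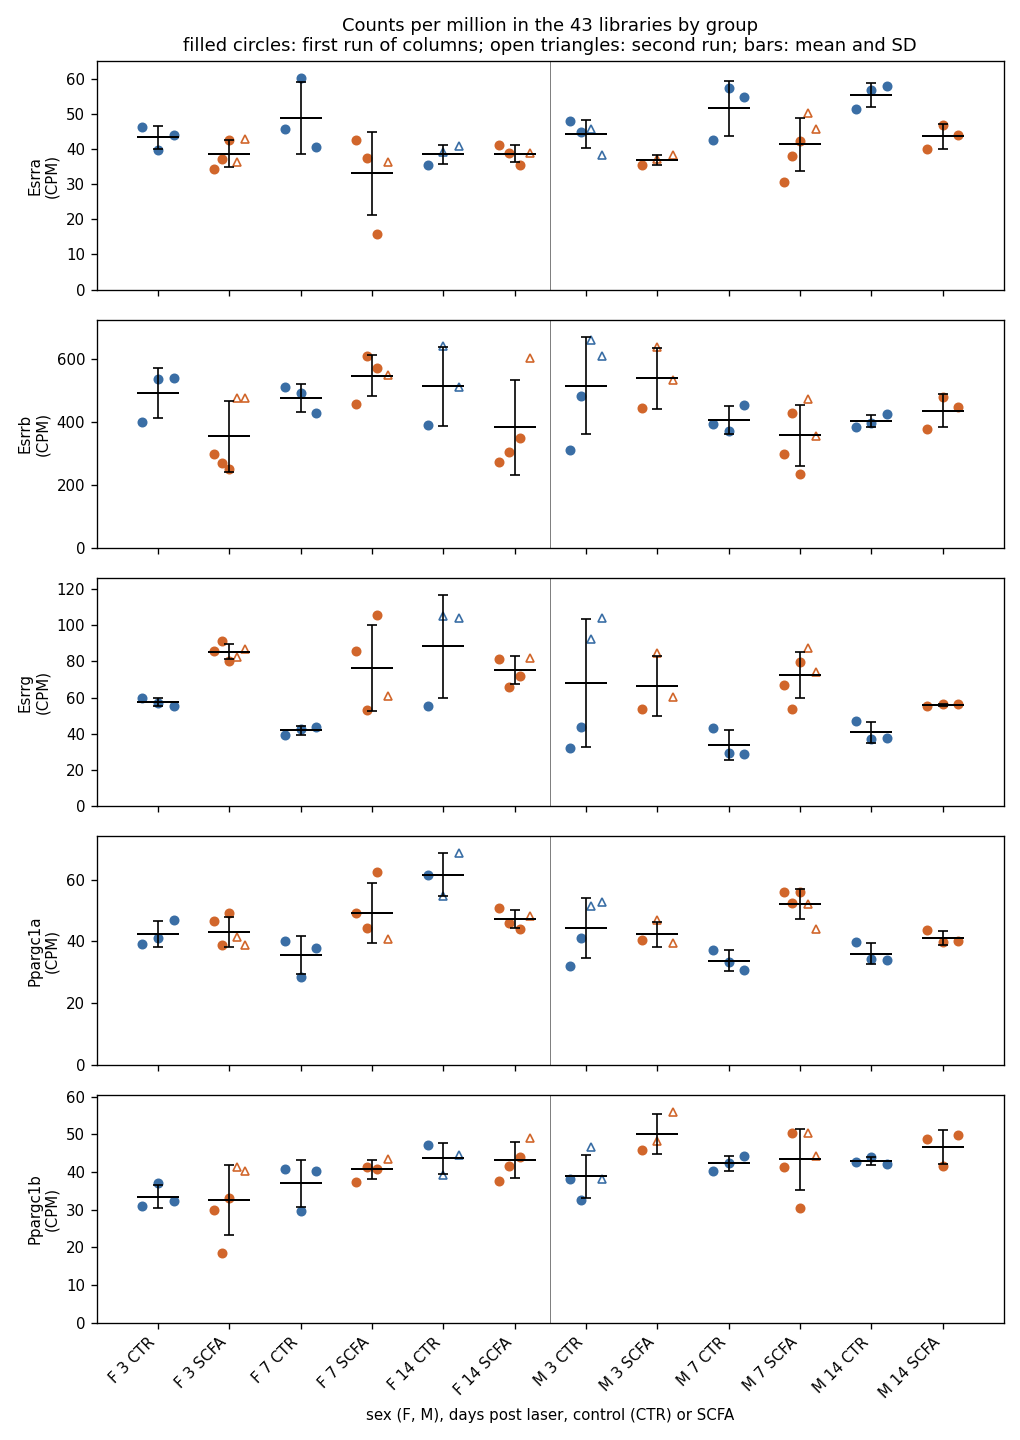
CPM of the 5 genes (vertical axes, linear) in the 43 libraries by sex, treatment and day; blue marks are control and orange marks SCFA libraries, filled circles the first and open triangles the second column run, and black lines with bars the group mean and SD. Esrrg and Ppargc1a SCFA males at 7 dpl sit above their controls, and Esrrb is higher in the second run in every group that holds both runs.

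Averaged over the 6 pairs of SCFA and control groups, Esrra was lower and Ppargc1a slightly higher under SCFA, Esrrb was lower, and Ppargc1b did not pass the test. In this average 34.7% of the 18197 genes tested were called at an adjusted p under 0.1 (edgeR quasi-likelihood test with Benjamini-Hochberg adjustment), so a call for a member is not unusual. Esrra fell by 0.29 ± 0.07 (SE) on the log2 scale (adjusted p = 0.00315) and Esrrb fell by 0.20 ± 0.07 (adjusted p = 0.0376). Ppargc1a rose by 0.15 ± 0.06 (adjusted p = 0.0638). Ppargc1b had 0.06 ± 0.06 (adjusted p = 0.489), with a 95% interval from -0.06 to 0.19. Esrrg differed by 0.42 ± 0.09, given without a test. In the 31 libraries of the first column run the same averages were -0.31 for Esrra, -0.18 for Esrrb (adjusted p = 0.17), 0.21 for Ppargc1a, 0.0092 for Ppargc1b and 0.64 for Esrrg. With the GC trend of each library taken out, Ppargc1a was at 0.014 and Esrrb at -0.12, and neither was called (adjusted p = 0.872 and 0.286).

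**Figure D2:**
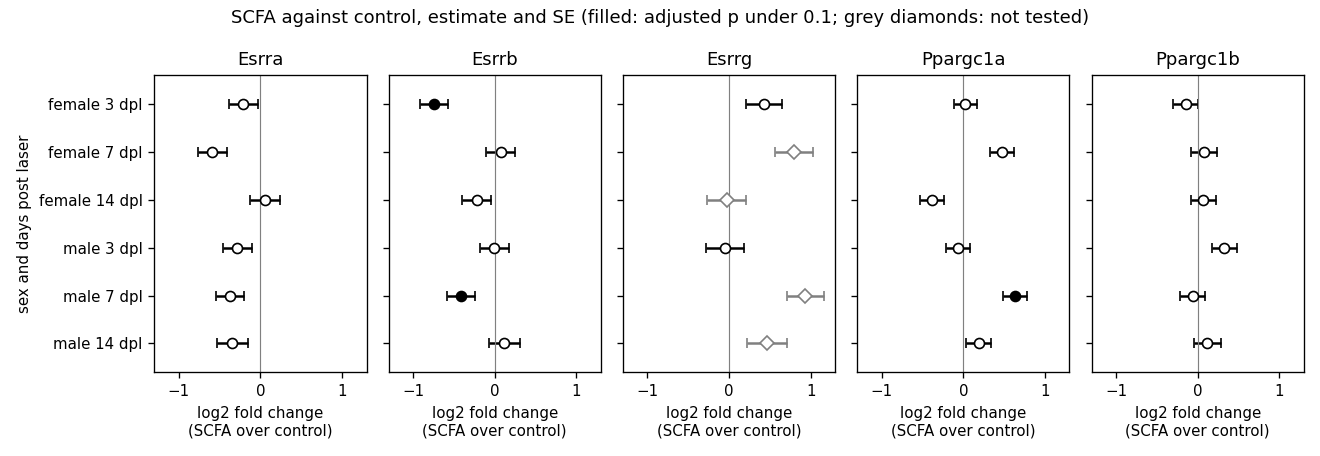
Log2 fold change of SCFA over control (horizontal axes) for the 5 genes in each of the 6 sex and day pairs; bars are 1 SE, filled marks have an adjusted p under 0.1, and grey diamonds are values of Esrrg that were not tested. Esrra lies below 0 in 5 of 6 pairs, and Ppargc1a is called in males at 7 dpl.

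Esrra, the receptor most closely tied to mitochondrial genes in muscle and heart, had a lower mean under SCFA in males at every day and in females at 3 and 7 dpl, although no single pair passed the test. In males at 14 dpl, the controls had 51.4, 56.9 and 57.8 CPM and the SCFA libraries 40.0, 47.0 and 43.9 CPM. The groups did not overlap (fold change -0.34 ± 0.19 on the log2 scale, adjusted p = 0.296), which was so for 17.8% of all genes in the downward direction at this day, where 7.13% were called. In males at 3 dpl, the controls had 47.8, 44.9, 45.8 and 38.4 CPM and the SCFA libraries 35.5, 37.3 and 38.2 CPM. Again there was no overlap (-0.28 ± 0.18, adjusted p = 0.592), against 3.79% of all genes in that direction. Males at 7 dpl overlapped, with 42.5, 57.4 and 54.7 CPM in controls and 30.5, 37.9, 42.4, 50.2 and 45.6 CPM under SCFA.

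In females at 7 dpl, Esrra was at 45.8, 60.1 and 40.6 CPM in controls and at 42.7, 37.5, 15.9 and 36.4 CPM under SCFA. The difference of -0.59 ± 0.18 did not pass the test (adjusted p = 0.128). It leaned on SCFA replicate 3, which had the lowest Esrra of the whole series, and without that library it was -0.35. Without control replicate 2, the highest control and the library with Y-linked transcripts, it was -0.42 (adjusted p = 0.529). Trmt112, the overlapping gene, was at 83.9 CPM in that library, inside its group's range of 62.5 to 89.4 CPM. At 14 dpl, females had 35.5, 39.2 and 40.8 CPM in controls and 41.3, 39.0, 35.5 and 38.9 CPM under SCFA, which is the one pair with no lower mean under SCFA (38.5 ± 2.73 and 38.7 ± 2.37 CPM, SD, n = 3 and 4). In females at 3 dpl, the means were 43.3 ± 3.38 CPM in controls (SD, n = 3) and 38.7 ± 3.87 CPM under SCFA (SD, n = 5). Trmt112, which encodes a partner of methyltransferases, moved the other way from Esrra in the average of the 6 pairs, with 0.16 ± 0.05 (adjusted p = 0.0105).

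Esrrb, a receptor that rods need to survive, fell in females at 3 dpl. The controls had 400, 537 and 539 CPM and the SCFA libraries 298, 270.2, 252, 475 and 477 CPM. The 3 SCFA libraries of the first run lay below all controls, and the 2 of the second run lay among them. The fitted change was -0.75 ± 0.17 (adjusted p = 0.0184), where 8.11% of all genes were called. Lens and muscle transcripts moved with this pair: all 6 lens and all 6 muscle markers were called higher under SCFA, with a summed lens level of 18.1 to 222800 CPM against 3.34 to 376 CPM in controls and a summed muscle level of 6.24 to 117 CPM against 8.27 to 13.3 CPM. With SCFA replicates 1 and 2 left out, a choice made after seeing the data, Esrrb was -0.70 and no longer called. Left out alone, control replicate 3 also ended the call (-0.68). The part of these transcripts in the result was not tested.

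In males at 7 dpl, Esrrb had 394, 370 and 455 CPM in controls and 297, 430, 235, 473 and 355 CPM under SCFA. The groups overlapped and the change of -0.42 ± 0.17 was called (adjusted p = 0.0933) where 22.2% of all genes were. This call did not hold up: it was lost in the first run alone (-0.34, adjusted p = 0.245). With the libraries that the study kept, fitted without the run term, the change was 0.054. In that fit all controls were of the first run and most SCFA libraries of the second, so the run is mixed into this value. The other 4 pairs did not pass. At 14 dpl, females had 390.4, 640 and 510.4 CPM in controls and 274, 305, 348 and 604 CPM under SCFA. The 3 SCFA libraries of the first run lay below all controls and the 1 of the second run did not (-0.22 ± 0.18), and with the libraries that the study kept the change was -0.88 and called (adjusted p = 0.0536). Males at 14 dpl had 402 ± 19.7 and 436 ± 52.1 CPM (SD, n = 3 each). At 7 dpl, females had 477 ± 44.1 CPM in controls (SD, n = 3) and 548 ± 65.6 CPM under SCFA (SD, n = 4). Males at 3 dpl had 516 ± 155 and 538 ± 97.1 CPM (SD, n = 4 and 3).

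The column run mattered most for Esrrb. In all 7 groups that hold both runs its mean was higher in the second, and the runs did not overlap in 5 of them. Control males at 3 dpl, for example, averaged 397.6 CPM in the first run and 634.1 CPM in the second, and SCFA females at 14 dpl 309 and 604.1 CPM. Esrrg showed the same split among control males at 3 dpl, with 38.2 and 98.3 CPM.

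Esrrg was higher in SCFA than in control mice at 7 dpl in both sexes. In males, the controls had 43.5, 29.4 and 28.6 CPM and the SCFA libraries 67.2, 53.6, 79.6, 87.7 and 74.4 CPM. Every SCFA library was above every control, as for 9.17% of all genes, and the difference was 0.94 ± 0.23 on the log2 scale, or 0.98 in the first run alone. In females at 7 dpl, the controls had 39.3, 42.5 and 43.8 CPM and the SCFA libraries 85.8, 53.4, 106 and 61.1 CPM. There was no overlap here either (0.80 ± 0.23, with 3.92% of all genes not overlapping in that direction), although the SCFA libraries spread widely, and without the highest of them, replicate 3, the difference was 0.56, while it was 0.80 without control replicate 2. At 14 dpl the sexes parted in their values. Males had 47.3, 37.4 and 37.7 CPM in controls and 55.4, 56.6 and 56.3 CPM under SCFA, with no overlap (0.46 ± 0.25), as for 15.7% of all genes in that direction. Females had 55.5, 105 and 104 CPM in controls and 81.4, 65.7, 72.1 and 81.9 CPM under SCFA (-0.03 ± 0.24). The low female control is the only one from the first run, and in that run alone the value for females was 0.41. These 4 pairs are described, not tested, since differences of Esrrg at these days were known when the gene was chosen.

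The pairs at 3 dpl were not part of that choice. In females, Esrrg was at 59.8, 57.1 and 55.3 CPM in controls and at 85.9, 91.3, 80.3, 82.5 and 86.6 CPM under SCFA. The SCFA libraries of both runs were above every control, as for 3.82% of all genes in that direction, but the change of 0.43 ± 0.22 did not pass the test (adjusted p = 0.267, 95% interval from -0.01 to 0.87). In the first run alone it was 0.57 (adjusted p = 0.0514), and with SCFA replicates 1 and 2 left out it was 0.26 (adjusted p = 0.752). In males, the controls had 32.3, 44.0, 92.3 and 104 CPM and the SCFA libraries 53.5, 84.9 and 60.3 CPM. They overlapped (-0.05 ± 0.23, adjusted p = 0.965), and the split among controls followed the run.

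**Figure D3:**
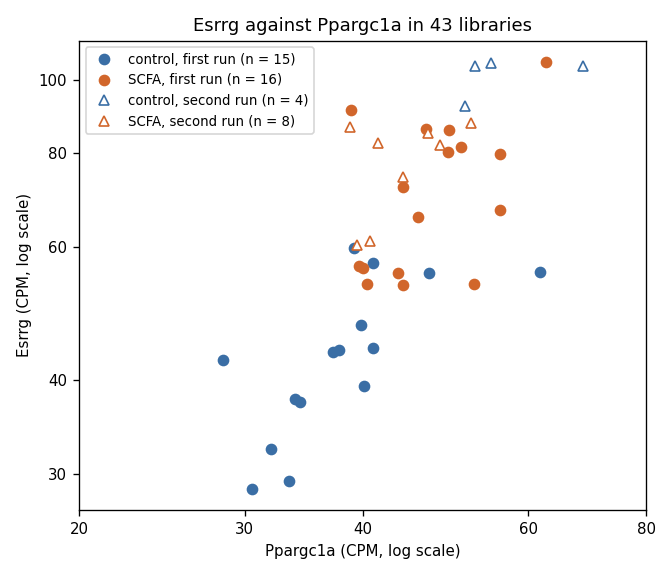
Esrrg against Ppargc1a in the 43 libraries (both axes in CPM on a log scale); blue marks are control and orange marks SCFA libraries, filled circles the first and open triangles the second column run. The genes rise together in both runs, and control libraries of the first run fill the lower left.

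Ppargc1a, which encodes PGC-1α, the coactivator that responds to energy demand, was higher in SCFA than in control males at 7 dpl. The controls had 37.2, 33.4 and 30.6 CPM and the SCFA libraries 56.0, 52.5, 55.9, 52.1 and 44.2 CPM. No libraries overlapped, as for 9.17% of all genes in that direction, and Ppargc1a rose by 0.63 ± 0.14 (adjusted p = 0.00257), with means of 52.1 ± 4.83 and 33.7 ± 3.33 CPM (SD, n = 5 and 3). It was called in the first run alone (0.70, adjusted p = 0.00165) and with any 1 of the 8 libraries left out (0.56 to 0.71), and it was smaller but still called with the GC trend taken out (0.38, adjusted p = 0.0254). Other measures moved in this pair. The summed level of 6 Müller glia markers was 4476 to 8718 CPM under SCFA and 3268 to 4161 CPM in controls. That of 7 pigment epithelium markers had medians of 227 CPM under SCFA and 369 CPM in controls. The sum of 6 muscle markers was 5.51 to 8.95 CPM under SCFA and 10.1 to 10.9 CPM in controls. None of these sums overlapped between the groups, while those of the other marker lists did. Their part in the result was not tested.

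Females at 7 dpl had 40.1, 28.4 and 37.8 CPM of Ppargc1a in controls and 49.4, 44.2, 62.7 and 40.7 CPM under SCFA. There was no overlap, as for 3.92% of all genes in that direction, and 0.643% of genes were called. The change of 0.48 ± 0.15 did not pass the test (adjusted p = 0.13), but did in the first run alone (0.55, adjusted p = 0.0874). Without control replicate 2, the lowest control and the library with Y-linked transcripts, it was 0.33 (adjusted p = 0.545), and with the GC trend taken out it was 0.25 (adjusted p = 0.562). At 14 dpl, females went the other way, with 61.7, 54.7 and 68.6 CPM in controls and 50.9, 45.8, 44.2 and 48.3 CPM under SCFA. These groups did not overlap either, as for 1.91% of all genes in the downward direction (-0.39 ± 0.15). In this pair edgeR called 0 of 18197 genes and DESeq2 called 1, while 529 genes had an unadjusted p under 0.05. Males at 14 dpl had 39.9, 34.4 and 33.9 CPM in controls and 43.6, 39.7 and 40.0 CPM under SCFA, which overlapped (0.19 ± 0.15, adjusted p = 0.5). At 3 dpl the means were 42.4 ± 4.13 and 43.1 ± 4.77 CPM in females (SD, n = 3 and 5) and 44.3 ± 9.70 and 42.3 ± 4.10 CPM in males (SD, n = 4 and 3).

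Ppargc1b, which encodes PGC-1β, the relative of PGC-1α that is tied to basal mitochondrial upkeep, passed the test in none of the 6 pairs. Its group means ran from 32.6 ± 9.28 CPM in SCFA females at 3 dpl (SD, n = 5) to 50.1 ± 5.29 CPM in SCFA males at 3 dpl (SD, n = 3). The largest fitted change was in males at 3 dpl, 0.33 ± 0.15 (adjusted p = 0.429), where 0.022% of all genes were called.

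Sex was compared within each treatment and day, and 4 calls were made for the members. Among controls at 14 dpl, Ppargc1a was lower in males, at 39.9, 34.4 and 33.9 CPM, than in females, at 61.7, 54.7 and 68.6 CPM. The groups did not overlap, as for 10.6% of all genes in that direction. The male to female change was -0.78 ± 0.16 (adjusted p = 0.0235), where 4.65% of all genes were called. Control females at 14 dpl are 1 library of the first and 2 of the second run, and control males are all of the first; with the first run alone the change was -0.77 and not called (adjusted p = 0.215). The call was also lost without female replicate 1 (-0.86 to -0.70 over all 6 omissions), male replicate 2 or male replicate 3. In the same groups Esrra was higher in males without overlap, as for 10.6% of all genes in that direction (0.60 ± 0.20, adjusted p = 0.102; called by DESeq2). Esrrg was lower in males without overlap, as for 10.6% of all genes in the downward direction (-0.82 ± 0.26, not tested; -0.44 in the first run alone). Under SCFA at 14 dpl the Ppargc1a difference was -0.21 ± 0.15.

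Under SCFA at 3 dpl, Ppargc1b was higher in males, at 46.0, 48.4 and 56.1 CPM, than in females, at 29.8, 18.4, 33.2, 41.4 and 40.3 CPM. The sexes did not overlap, as for 8.08% of all genes in that direction, and the change was 0.57 ± 0.14 (adjusted p = 0.0363), where 13.6% of all genes were called. Esrrb was higher in males too (443, 637 and 535 CPM against the female values above), by 0.49 ± 0.17 (adjusted p = 0.0699). Lens and muscle transcripts moved with this comparison too: with female replicates 1 and 2 left out, Ppargc1b was 0.38 and Esrrb 0.45, neither called, and all 6 lens and 3 of 6 muscle markers were called lower in males in the comparison as made. Ppargc1b also lost its call without male SCFA replicate 1. Under SCFA at 7 dpl, Esrrb was lower in males, at 297, 430, 235, 473 and 355 CPM, than in females, at 456, 611, 572 and 551 CPM. Only the highest male library reached into the female range (-0.72 ± 0.16, adjusted p = 0.0289), and 0.253% of all genes were called. The change was -0.77 in the first run alone, where it was not called.

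The response to SCFA was then compared between the sexes. At each of the 3 days edgeR called 0 of 18197 genes, while 2296, 1332 and 1822 genes had an unadjusted p under 0.05 at 3, 7 and 14 dpl and DESeq2 called 39, 20 and 0. No member passed this test. The estimates furthest from 0 were those of Esrrb at 3 dpl, 0.74 ± 0.25 (adjusted p = 0.253; called without the filter on low counts, 0.73, adjusted p = 0.0405), and Ppargc1a at 14 dpl, 0.58 ± 0.21 (adjusted p = 0.485). Between days, Ppargc1a in controls changed by -0.33 ± 0.11 from 3 to 7 dpl (adjusted p = 0.625) and by 0.45 ± 0.11 from 7 to 14 dpl (adjusted p = 0.328), with the sexes averaged. For these steps edgeR called 0 of 18197 genes, DESeq2 called 14 and 32, and 1191 and 1701 genes had an unadjusted p under 0.05. Esrrg in controls followed the same course in its values, with -0.60 ± 0.17 and 0.52 ± 0.18, while under SCFA its steps were 0.08 ± 0.15 and -0.13 ± 0.15; none of these was tested.

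Esrrg and Ppargc1a, a receptor and its coactivator, varied together from library to library. Over the 43 libraries, the log2 CPM values gave r = 0.749 and rho = 0.685, with no p because Esrrg was chosen on these libraries and libraries share groups and runs. The correlation was 0.749 in the 31 libraries of the first run, 0.762 in the 12 of the second, 0.707 after the mean of each group and run was taken off, and 0.705 without the 2 libraries farthest from the median of the measure on the horizontal axis. Esrra ran against both in the first run only. With Ppargc1a it had r = -0.606 and rho = -0.528. The permutation p-values were 1e-05, the smallest that 100000 permutations can give, and 0.00051. Adjusted over 25 relations they were 6.25e-05 and 0.00255. The permutations mixed libraries of different groups and runs, so these p-values can be too small. After the mean of each group and run was taken off, r was -0.543. Within runs, r for that pair was -0.743 in the first and 0.236 in the second (permutation p = 0.458), so the relation did not hold in the second run. Esrra and Esrrg had r = -0.552 in all libraries, -0.692 in the first run and 0.221 in the second.

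These relations moved with the GC content of the transcripts. For each library, the slope of its deviation from the mean log2 CPM of each gene was fitted over the genes' GC content, and is given in log2 units per 10 percentage points of GC; its use here was chosen after seeing the data. A negative slope means that AT-rich transcripts were relatively high. In males at 7 dpl the mean slope was 0.124 in controls and -0.084 under SCFA, in females at 7 dpl 0.073 and -0.109, in males at 14 dpl 0.131 and -0.036, and in females at 14 dpl -0.018 and -0.040. At 7 dpl in both sexes and at 14 dpl in males, the group with the higher Esrrg and Ppargc1a, whose transcripts are AT-rich, was thus the one with the lower slope. At 3 dpl the mean slope was 0.071 in control and -0.019 in SCFA males, although Esrrg and Ppargc1a were not higher under SCFA there (-0.05 and -0.07), and 0.017 and -0.017 in control and SCFA females. The part of the slope in these differences was not tested beyond the fit without it in the next paragraph. Ppargc1a had r = -0.729 and rho = -0.668 with the slope (permutation p = 1e-05 for both, the smallest possible; adjusted 6.25e-05 and 8.33e-05), with -0.893 in the first run and -0.155 in the second. Esrra had r = 0.795 and rho = 0.707 (permutation p = 1e-05 for both, adjusted 6.25e-05 and 8.33e-05), with 0.830 and 0.345 in the runs. The permutations again mixed libraries of different groups and runs, so these p-values can be too small. After the mean of each group and run was taken off, r was -0.810 for Ppargc1a and 0.715 for Esrra. Esrrg had r = -0.575, with -0.818 in the first run and 0.120 in the second. Esrrb (r = 0.228) and Ppargc1b (r = 0.035) showed little relation to it. The lowest slope of all libraries, -0.297, was that of female SCFA 7 dpl replicate 3, the library with the lowest Esrra and, among the females of 7 dpl, the highest Esrrg and Ppargc1a.

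With the GC trend of each library taken out of the fit, Esrrg was 0.71 in males and 0.58 in females at 7 dpl. The average over the 6 pairs became 0.31 for Esrrg, and Ppargc1b was then called higher, at 0.19 (adjusted p = 0.0334). Esrra, whose longest transcript has 50.3% GC, kept -0.28 (adjusted p = 0.00674). Its level nevertheless rose with the GC slope of the libraries (r = 0.795). How much of that relation this fit removed was not tested. The lower Ppargc1a of control males at 14 dpl was -0.57 (adjusted p = 0.0496).

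**Figure D4:**
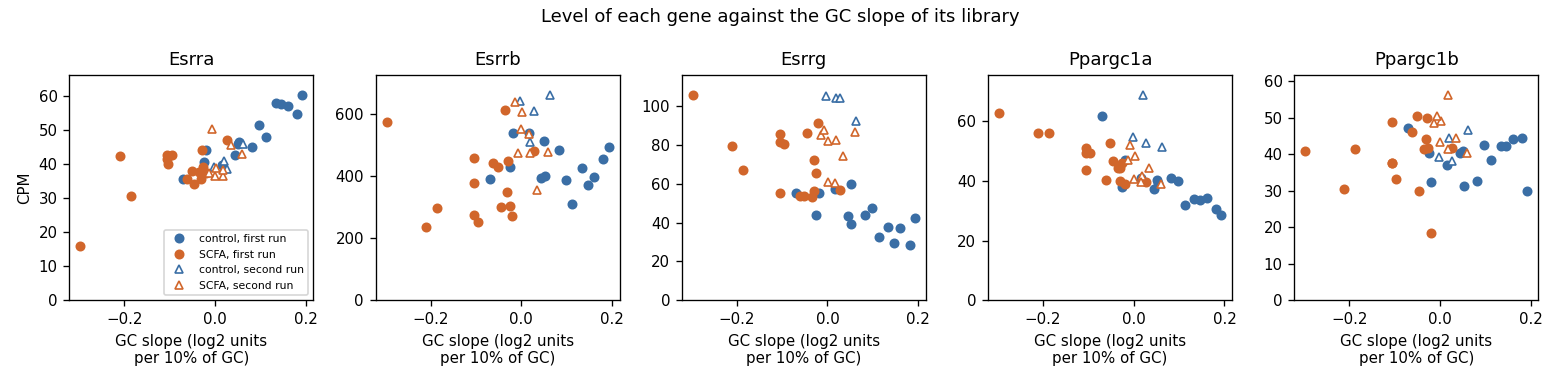
CPM of the 5 genes (vertical axes, linear) against the GC slope of each of the 43 libraries (horizontal axes, log2 units per 10 percentage points of GC); blue marks are control and orange marks SCFA libraries, filled circles the first and open triangles the second column run. In the first run Esrra rises and Esrrg and Ppargc1a fall along the slope, with r = 0.830, -0.818 and -0.893.

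The genes whose log2 CPM followed each member most closely over the 43 libraries, after the run means were removed, were AT-rich for Esrrg and Ppargc1a and GC-rich for Esrra. For Esrrg they were Prkacb, a catalytic subunit of protein kinase A (r = 0.969), Tmem106b (r = 0.960), Sec23a, Vstm2a and Eif4g2, with GC contents of 38.5 to 45.4%. For Ppargc1a they were N4bp2l2 (r = 0.890), Homer1, a synaptic scaffold (r = 0.871), Togaram1, Shoc2 and Nrip1, a nuclear receptor corepressor (r = 0.859), with 36.1 to 43.7%. Esrra was followed by Podxl2 (r = 0.875) and Rxrb, a retinoid X receptor (r = 0.867), then Snx8, Camk2n2 and Rusc2, with 58.7 to 63.9%. Esrrb was followed by Hk2, the hexokinase of photoreceptor glycolysis (r = 0.910), Wdr31 (r = 0.870), Rhobtb1 and Podxl, with 49.6 to 52.7%. Ppargc1b was followed by Dgke (r = 0.844), Ttll3, Stard7, Fam161a and Rrnad1. Close as Esrrg and Ppargc1a were, each had many closer genes: Ppargc1a was at rank 600 for Esrrg, and Esrrg at rank 233 for Ppargc1a.

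Genes around the receptors and coactivators were followed in a list of 78, of which 76 were tested: coregulators, upstream regulators, mitochondrial transcription factors, and targets in the tricarboxylic acid cycle, fatty acid oxidation, oxidative phosphorylation, and mitochondrial fusion, fission and antioxidant defence (with Vegfa). Averaged over the 6 pairs, 20 were called higher and 23 lower under SCFA, or 56.6%, beside 34.7% of all genes, and their median of -0.02 was close to the 0.00 of all genes tested. With the GC trend taken out, 9 were higher and 17 lower (34.2%, beside 25.7%). In males at 7 dpl, 16 were higher and 14 lower, or 39.5%, beside 22.2%, with medians of -0.09 and -0.02. There the counts without the GC trend were 8 and 9 (22.4%, beside 14.4% of all genes). At 3 dpl in females, 7 were higher and 3 lower (13.2%, beside 8.11% of all genes), and with SCFA replicates 1 and 2 left out 0 of 76 were called, beside 0.0165% of all genes. At 14 dpl in males 4 were higher and 6 lower (13.2%, beside 7.13%), at 7 dpl in females only Hadhb was higher (1.32%, beside 0.643%), and the pairs of males at 3 dpl and females at 14 dpl had none. Genes called in both directions were found in most comparisons with any call.

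Regulators of Ppargc1a and coregulators held 10 of the 16 genes called higher in males at 7 dpl, where 22.2% of all genes were called in either direction. With the GC trend taken out they held 5 of 8, namely 3 of the regulators and 2 of the coregulators, with 2 regulators and 0 coregulators lower. In males at 7 dpl, 7 of 15 upstream regulators rose and 4 fell, among them Ppp3ca, the catalytic subunit of calcineurin (1.36), Atf2, a factor that binds cAMP response elements (0.81), and Prkaa1, a catalytic subunit of AMP kinase (0.53), while Crtc2, a coactivator of CREB, fell by 0.48. Of 11 coregulators 3 rose and 2 fell. The deacetylase Sirt1 (0.78), the coactivator Ncoa2 (0.57) and the corepressor Nrip1 (0.46) were higher. Of 7 mitochondrial transcription genes, Tfb2m (0.52) and Gabpa (0.51) were higher and Polrmt, the mitochondrial RNA polymerase, was lower (-0.46).

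Among the metabolic targets, the shares called in males at 7 dpl were 25.0% in the tricarboxylic acid cycle and 35.7% in fatty acid oxidation, beside 22.2% of all genes. In the tricarboxylic acid cycle, 0 of 12 genes rose and 3 fell in males at 7 dpl, among them Suclg1 (-0.44) and Idh3g (-0.27), and 0 rose and 6 fell in the average of the 6 pairs. With the GC trend taken out, 1 of the 12 was called in males at 7 dpl (8.33%, beside 14.4% of all genes). In the average of the 6 pairs, 0 rose and 5 fell with the trend out (41.7%, beside 25.7% of all genes). With the trend left in, 34.7% of all genes were called in that average. In fatty acid oxidation, 2 of 14 rose and 3 fell in males at 7 dpl. Acadvl, the very long chain acyl-CoA dehydrogenase, was at -0.88 and Hadha at -0.36, while Acadl (0.44) and Hadhb (0.32) were higher. Of 7 genes of oxidative phosphorylation, Cycs was higher (0.42) and Cox5a lower (-0.39). Of 10 genes of the last list, Prdx3, a mitochondrial peroxidase, alone was called (0.32). In the sex comparison of controls at 14 dpl, where Ppargc1a was lower in males, 2 of the 76 were higher (Suclg1 and Atp5b) and 8 lower (Ncoa2, Sirt1, Nrip1, Ncoa1, Atf2, Foxo1, Creb1 and Ppp3ca), or 13.2%, beside 4.65% of all genes. With the GC trend taken out 0 were higher and 3 lower, and in the first run alone 0 of 76 were called, beside 0.0259% of all genes.

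**Figure D5:**
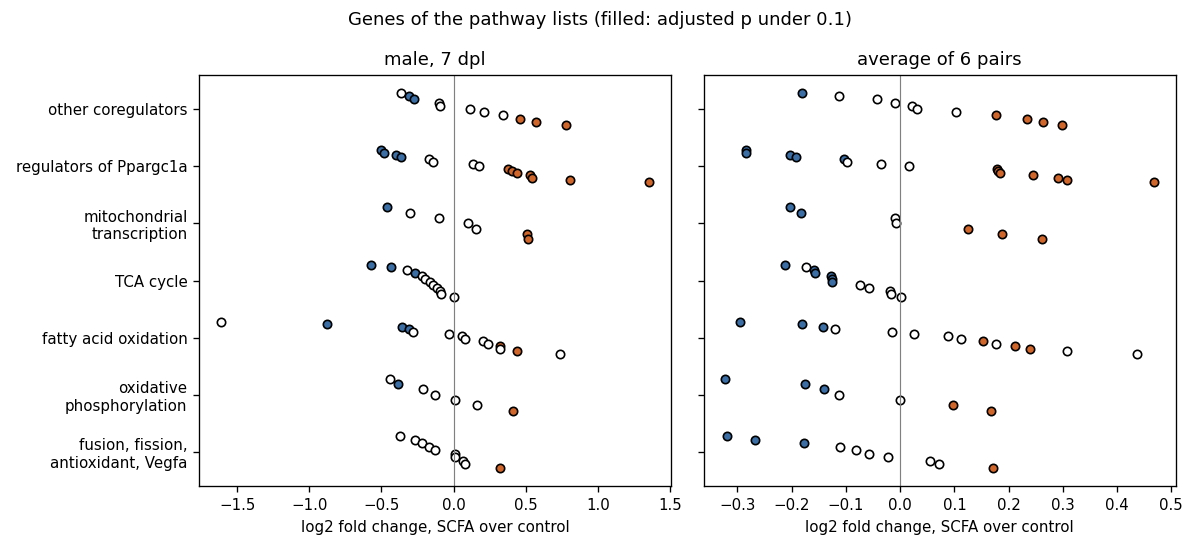
Log2 fold change of SCFA over control (horizontal axes) for the genes tested in each list around the receptors (rows), in males at 7 dpl and in the average of the 6 pairs; each point is a gene, filled orange for called higher, filled blue for called lower and open for not called. Upstream regulators reach the highest values in males at 7 dpl (Ppp3ca, 1.36), and no gene of the tricarboxylic acid cycle is called higher in either panel.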

How the data were processed

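Retinal RNA of 43 libraries in 12 groups (sex, SCFA or control, day) was sequenced, and the authors deposited 1 table of raw counts per gene. The submitters' processing notes name mm10 and DESeq2; the aligner and the strand setting are not given in the sources used here. All columns were mapped to a sample by the library name in its description. Genes were matched to GENCODE M21 (54495 of 54532), which gave lengths and GC contents. The members and lists were chosen with earlier results of these data known.

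Counts were fitted once over all 43 libraries with edgeR 4.0.16 (R 4.3.3; glmQLFit, glmQLFTest), with group and column run as terms, TMM scaling and filterByExpr, which kept 18197 genes. Benjamini-Hochberg adjusted p-values under 0.1 are called. Fold changes are log2 with SE and intervals of 1.96 SE. Each library pooled 2 retinas, and p-values measure the spread between such pools. On simulated counts of the male 7 dpl comparison (17469 genes), 20% of changes of 0.5 and 92% of changes of 1 (log2) were called. The simulation changed few genes, with the same spread for every gene and no run effect. In the data 22.2% of genes were called in this comparison, so the simulated shares do not carry over to it. Correlations used log2(CPM + 1), with 100000 permutations, over libraries that share groups and runs. For the members, CPM is counts over the TMM-scaled library size. For Xist and the Y-linked genes, it is counts over the column total. Named genes are the 5 members, the 5 genes most correlated with each, and up to 4 called genes per list with the smallest p, with further called genes named after their values were seen. A few genes that this rule names are not reported here. Alternatives were DESeq2 1.42.0, RLE scaling, no filter, no run term, first run only, the study's libraries, a replicate block, length and GC trends removed, other thresholds and omission of each library. The study's libraries were fitted separately for each comparison and without a run term. Python 3.11.15 with numpy 2.4.6, pandas 2.3.3, scipy 1.17.1 and matplotlib 3.10.9 did the rest.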

Additional observations from a re-analysis of the deposited data

How the results depend on the processing

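Of 1044 member values in other settings, 951 kept sign and call. Most were uncalled, which stricter thresholds cannot alter. The difference of Ppargc1a in males at 7 dpl (0.56 to 0.71 on the log2 scale with each library left out) and the averages of Esrra (-0.32 to -0.25) and Esrrb (-0.23 to -0.18) were called in every fit that left out 1 library. In no comparison did a called member reach an absolute log2 fold change over 1, so that threshold ends all calls: Esrrb in females at 3 dpl (-0.75), in males at 7 dpl (-0.42) and on average (-0.20), Ppargc1a in males at 7 dpl (0.63), on average (0.15) and between control sexes at 14 dpl (-0.78), Esrra on average (-0.29), and between SCFA sexes Esrrb (0.49 and -0.72 at 3 and 7 dpl) and Ppargc1b (0.57). An adjusted p under 0.05 ended the calls of Esrrb in males at 7 dpl (-0.42) and between SCFA sexes at 3 dpl (0.49), and of the Ppargc1a average (0.15).

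Without the run term, Esrrb was not called in females at 3 dpl (-0.47), in males at 7 dpl (-0.18), on average (-0.12), or between SCFA sexes at 3 dpl (0.60) and 7 dpl (-0.61). With the first run alone, Esrrb was not called in males at 7 dpl (-0.34), on average (-0.18) or between SCFA sexes at 3 dpl (0.70) and 7 dpl (-0.77), Ppargc1a was not called between control sexes at 14 dpl (-0.77), and Esrrg there moved to -0.44. With GC trends removed, Esrrb in males at 7 dpl (-0.26) and on average (-0.12) and the Ppargc1a average (0.014) were not called, and the Ppargc1b average was (0.19). RLE scaling left Esrrb in males at 7 dpl uncalled (-0.40). With the study's libraries, 1 fit per comparison and no run term, Esrrb in males at 7 dpl reversed to 0.054. Under this setting Ppargc1a between control sexes at 14 dpl was not called (-0.78), and Esrrg in females at 7 dpl was 1.19. With female SCFA 3 dpl replicates 1 and 2 left out, chosen after seeing the data, Esrrb was not called in females at 3 dpl (-0.70), in males at 7 dpl (-0.39) or between SCFA sexes at 3 dpl (0.45), nor was Ppargc1b there (0.38), while the Ppargc1b average was called (0.12). The cause of these changes was not tested.

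Left out singly, libraries moved Esrrb in females at 3 dpl from -0.88 to -0.68 (lost without control replicate 3, -0.68). In males at 7 dpl Esrrb ran from -0.60 to -0.33 and stayed called only without SCFA replicate 2 or 4. The Ppargc1a average ran from 0.12 to 0.16 and was lost without female control 7 dpl 2, the library with Y-linked transcripts (0.12), female control 3 dpl 1 (0.13) and 14 dpl 2 (0.13), female SCFA 7 dpl 3 (0.12), male control 7 dpl 3 (0.13), or male SCFA 3 dpl 2 (0.13) and 14 dpl 1 (0.14). The Ppargc1b average ran from 0.04 to 0.09, never called. Between SCFA sexes at 3 dpl, Esrrb ran from 0.43 to 0.58, called only without female replicate 4 or 5, and Ppargc1b from 0.46 to 0.64, lost without male replicate 1 (0.55). At 7 dpl Esrrb ran from -0.90 to -0.62, lost without female replicate 2 (-0.62) or 3 (-0.66) or male replicate 3 (-0.64) or 5 (-0.65). Between control sexes at 14 dpl, Ppargc1a ran from -0.86 to -0.70, lost without female replicate 1 (-0.78), male 2 (-0.75) or male 3 (-0.74).

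Results not called here but called under some alternative were Esrra (-0.71 to -0.59) and Ppargc1a (0.48 to 0.56) in females at 7 dpl, by DESeq2 among others, Esrra in males at 7 dpl (-0.49) and 14 dpl (-0.34) and between control sexes at 14 dpl (0.60 to 0.62), Esrrg in females at 3 dpl (0.43 and 0.57) and between SCFA sexes there (-0.79 to -0.51), Ppargc1a in controls from 7 to 14 dpl (0.45) and the sex difference of the Esrrb response at 3 dpl (0.73). So was Esrrb in females at 14 dpl (-0.88), only with the study's libraries, where run and treatment cannot be told apart. Counts of all genes called ranged widely over the settings: 3 to 3260 in females at 3 dpl (1476 as reported), 2096 to 4488 in males at 7 dpl (4047), 0 to 801 in females at 7 dpl (117), 205 to 3952 in males (1298) and 0 to 2962 in females at 14 dpl (0), 4427 to 6703 on average (6317), 25 to 3471 and 22 to 428 between SCFA sexes at 3 and 7 dpl (2470 and 46), and 5 to 1658 between control sexes at 14 dpl (847). Libraries with the same replicate number did not deviate together (mean r = 0.07 over 209 pairs, from -0.67 to 0.67), so the numbers do not pair them. With a replicate block, Ppargc1a between control sexes at 14 dpl was not called (-0.67), and no other call of a member was lost.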
